A study of Mus musculus with 2 samples.

Results

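The miR-17-92 cluster and its paralogs, the miR-106b-25 and miR-106a-363 clusters, were examined in extracellular vesicles, the membrane particles that cells release into their medium. The members were the probes of a 420-probe rat miRNA code set named for miR-17, miR-18a, miR-19a, miR-19b, miR-20a, miR-20b, miR-25, miR-92a, miR-92b, miR-93, miR-106b or miR-363, with or without an arm suffix, and 12 of the 420 probes met this rule. The files spell them as rno-miR-25, rno-miR-93, rno-miR-106b, rno-miR-363 and so on, and the prefix is dropped below. A joint probe for miR-20a and miR-20b-5p counted once, and miR-92b, a relative outside the 3 clusters, was included.

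The IL-1β vesicles came from primary cortical astrocytes of GFAP-EGFP mice, whose astrocytes carry a green fluorescent reporter driven by the GFAP promoter, given 200 ng per ml of the inflammatory cytokine IL-1β and collected after 2 h. The control vesicles came from the same kind of culture with no treatment and were gathered over 24 h, so cytokine and collection time changed together and cannot be told apart. Per the labels' protocols, the cells of both groups were from day 1 pups, at passages 3 to 10 and 98% GFAP-positive, and each preparation pooled 8 to 10 flasks. With 1 sample in each group, differences have no replicate check and no p-value is given. Intervals are at 95% and cover counting error only.

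The clusters are groups of miRNA genes transcribed together, whose products share a few seeds, the bases 2 to 8 that pair with target mRNAs. The miR-17-92 transcript is activated by the growth regulator Myc, and its products lower inhibitors of cell division and cell death, among them Cdkn1a and Bcl2l11 (Bim). In the developing mouse brain miR-17-92 acts in neural stem and progenitor cells, where it favours proliferation.

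In the mouse genome (GRCm38.p6, RefSeq annotation), miR-17-92 lies at chr14:115043671-115044506 on the plus strand, with 6 miRNA genes in 836 bp, partly overlapping the lncRNA gene Mir17hg. The miR-106b-25 cluster lies at chr5:138165321-138165818 on the minus strand, with 3 miRNA genes in 498 bp inside Mcm7, a gene of the DNA replication helicase. The miR-106a-363 cluster lies at chrX:52741693-52742567 on the minus strand, with 6 miRNA genes in 875 bp, partly overlapping the lncRNA gene Kis2. The separate Mir92b gene lies at chr3:89227116-89227198. All 13 mature mouse sequences of the 12 probes were found in RefSeq's table. They are shown because the families below are read from them, with the seed in capitals, and they are mouse sequences, whereas the probes were designed for rat.

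The miR-17 seed was shared by 5 of the sequences, which come from all 3 clusters.
miR-17-5p: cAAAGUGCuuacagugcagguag
miR-20a-5p: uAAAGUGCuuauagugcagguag
miR-20b-5p: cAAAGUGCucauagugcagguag
miR-93-5p: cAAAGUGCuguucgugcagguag
miR-106b-5p: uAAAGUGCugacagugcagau

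The miR-25/92 seed was shared by 4 members and, among the other probes that could be looked up by name (277 of 408), by miR-32, which lies in Tmem245 at chr4:56895229-56895298 and is shown for comparison.
miR-25-3p: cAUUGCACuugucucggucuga
miR-92a-3p: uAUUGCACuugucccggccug
miR-92b-3p: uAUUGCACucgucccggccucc
miR-363-3p: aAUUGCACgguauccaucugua
miR-32-5p: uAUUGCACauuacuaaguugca

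The remaining members have the miR-19 seed, the miR-18 seed or, for the opposite arm of the miR-20b hairpin, a seed of its own.
miR-19a-3p: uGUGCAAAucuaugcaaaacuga
miR-19b-3p: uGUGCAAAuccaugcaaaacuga
miR-18a-5p: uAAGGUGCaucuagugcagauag
miR-20b-3p: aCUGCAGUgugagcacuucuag

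Some members are close enough that a probe may count a relative. Compared base by base from the 5′ end, miR-20a-5p and miR-20b-5p differ at 2 of 23 bases, which is the pair read by 1 probe. miR-17-5p also differs from each of them at 2 of 23 bases, and miR-19a differs from miR-19b at 1 of 23. miR-25 differs from miR-92a at 3 of 21 bases. In contrast, miR-363 differs from miR-25 at 13 of 22 bases and miR-32 differs from it at 9 of 22. Exchange of counts between probes was not tested.

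RNA was counted with the NanoString nCounter assay, which tallies colour-coded reporters hybridised to tagged small RNAs. All miRNA probes summed to 13514 counts in IL-1β vesicles and 16812 in control vesicles, and the median probe had 5 counts in each. The background threshold of each sample was set from its 8 negative-control probes at their mean + 2 SD, 9.67 counts for IL-1β and 6.41 for control, and 146 and 185 of the 420 probes exceeded it. The astrocyte list (miR-125b-5p, miR-181a and others) passed in both samples with 8 of 8 probes. In lists for other cells, the 5 neuron probes summed to 20 counts in IL-1β vesicles and 20 in control vesicles, and the 4 microglia and leukocyte probes to 23 in IL-1β vesicles and 26 in control vesicles. The 2 oligodendrocyte probes summed to 7 counts in IL-1β vesicles and 9 in control vesicles, the 2 erythroid probes to 8 in IL-1β vesicles and 7 in control vesicles, and the 1 endothelial probe had 7 in IL-1β vesicles and 10 in control vesicles. Of these, miR-218a of the neuron list (12 counts in each) and miR-142-3p of the leukocyte list (10 in IL-1β vesicles and 12 in control vesicles) passed in both samples. miR-142-5p, miR-219-5p and miR-126 passed in control vesicles alone, with 11, 8 and 10 counts. In the neuron list, miR-124 had 5 counts in IL-1β vesicles and 1 in control vesicles, and miR-9 had 0 and 1. The lymphocyte marker miR-150 had 3 counts in IL-1β vesicles and 0 in control vesicles.

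Most of the cluster miRNAs, like most miRNA probes of the whole set, were not above background in these vesicles. Of the 12 member probes, 3 passed in IL-1β vesicles (25%) and 4 in control vesicles (33.3%), where 34.8% and 44.0% of all probes did. With 12 probes these shares are too close to set the members apart from the whole set. Those above background in both were miR-25, the joint miR-20a/20b-5p probe and miR-363. A further member, miR-93, passed in control vesicles alone, and 8 members passed in neither. This rests on 1 IL-1β negative control with 10 counts: without it the IL-1β threshold was 5.87, and miR-93 and miR-17-5p passed too, making 5 members in IL-1β vesicles. The whole set rose as well, from 146 to 202 probes above background in IL-1β vesicles. The median member had 4 counts in IL-1β vesicles and 3 in control vesicles. Together the 12 probes accounted for 0.814% of all miRNA counts in IL-1β vesicles (exact binomial interval 0.669 to 0.980) and 1.09% in control vesicles (0.943 to 1.26).

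**Figure D1:**
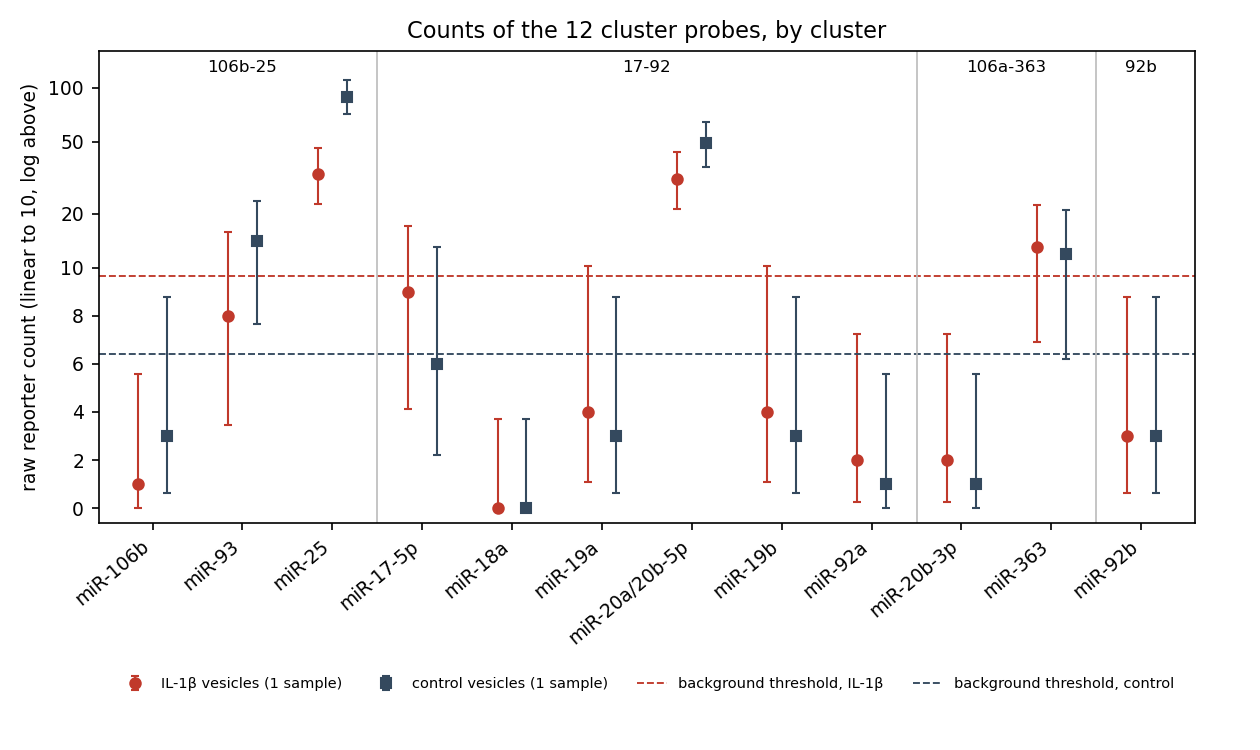
Raw reporter counts of the 12 member probes (vertical axis, linear to 10 and logarithmic above), grouped by cluster, with exact Poisson 95% intervals; circles are IL-1β vesicles, squares control vesicles, and dashed lines the background thresholds of 9.67 and 6.41 counts. Only miR-25, miR-20a/20b-5p and miR-363 lie above the threshold in both samples, and miR-25 alone has intervals that do not overlap.

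The miR-106b-25 cluster held miR-25, the member with the highest raw count in both samples and, among the 3 members above background in both, the largest raw count difference. miR-25, which in human cancer cells lowers the cell death gene BCL2L11, had 33 counts in IL-1β vesicles (Poisson interval 22.7 to 46.3) and 89 in control vesicles (71.5 to 109.5). It ranked 74th and 42nd of the 420 probes and accounted for 0.244% and 0.529% of the miRNA counts. Scaled on the geometric mean of the 100 highest miRNA probes, a factor of 0.875 of IL-1β over control, miR-25 was at a ratio of 0.424 (0.275 to 0.638), 2.36-fold lower in IL-1β vesicles. Fewer vesicles that carry it and fewer copies in each vesicle cannot be told apart.

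Its neighbours in the same transcript were near or under background. miR-93, which has the miR-17 seed and in human cells lowers the cell cycle inhibitor CDKN1A, had 8 counts in IL-1β vesicles and 14 in control vesicles. Against the IL-1β threshold this is a bound of at least 1.27-fold lower in IL-1β vesicles, but the interval of the count ratio, 0.237 to 1.67, includes 1. miR-106b, with the same seed and the same human target, had 1 count in IL-1β vesicles and 3 in control vesicles, both within background. Thus 1 of the 3 products gave nearly all of the cluster's signal over background. Summed, the cluster accounted for 0.311% of the miRNA counts in IL-1β vesicles and 0.631% in control vesicles, a scaled ratio of 0.453 (0.309 to 0.653). Without miR-25 the sums were 9 counts in IL-1β vesicles and 17 in control vesicles, with a ratio of 0.605 and an interval of 0.238 to 1.43. Over the 3 probes, 9.38 and 9.75 counts are expected from the negative controls.

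The miR-17-92 cluster was represented by the joint miR-20a/20b-5p probe. miR-20a is a product of miR-17-92 and miR-20b of miR-106a-363, and in human cells miR-20a lowers the cell cycle factor E2F1. The probe had 31 counts in IL-1β vesicles (Poisson interval 21.1 to 44.0) and 49 in control vesicles (36.3 to 64.8), a ratio of 0.723. Its interval of 0.446 to 1.16 includes 1, so no difference was detectable at this depth. Which of the miRNAs gave the counts cannot be told from a joint probe.

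The other products of miR-17-92 were within background. miR-17-5p, which in human cells also lowers E2F1, had 9 counts in IL-1β vesicles and 6 in control vesicles, each just under its threshold. The miR-19 pair, which carries much of the cluster's growth-promoting action in mouse lymphoma, had 4 counts in IL-1β vesicles and 3 in control vesicles with the miR-19a probe, and the same with the miR-19b probe. miR-92a, which acts on the integrin gene Itga5 in endothelial cells, had 2 counts in IL-1β vesicles and 1 in control vesicles. miR-18a, which lowers the matrix gene Ctgf, had 0 counts in both samples. A limit of 3 counts is a share of 0.0222% in IL-1β vesicles and 0.0178% in control vesicles. The upper ends of the exact binomial intervals used for the other shares are 0.0273% in IL-1β vesicles and 0.0219% in control vesicles. Probes named for the 3p arm of miR-17 had counts as low: the miR-17-1-3p probe had 1 count in IL-1β vesicles and 0 in control vesicles, and miR-17-2-3p had 5 and 4.

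Summed over its 6 probes, miR-17-92 had 50 counts in IL-1β vesicles and 62 in control vesicles. The scaled ratio was 0.921 (0.622 to 1.36), and 18.8 and 19.5 of these counts are expected from the negative controls. The miR-19b and miR-92a sequences are also encoded in miR-106a-363, so these counts cannot be given to 1 cluster. With those probes and miR-20a/20b-5p counted under miR-106a-363, the ratio was 1.65 for miR-17-92, over probes that are all within background, and 0.900 for miR-106a-363.

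From miR-106a-363 itself, miR-363, which has the miR-25/92 seed, had 13 counts in IL-1β vesicles and 12 in control vesicles. Its ratio of 1.24 had an interval of 0.521 to 2.97, and its direction turned with scaling. The probe for miR-20b-3p, the opposite arm of the miR-20b hairpin, had 2 counts in IL-1β vesicles and 1 in control vesicles. The 2 probes summed to 15 counts in IL-1β vesicles and 13 in control vesicles, a ratio of 1.32 (0.585 to 3.01), with 6.25 and 6.50 counts expected from the negative controls. miR-92b, which in mouse cortex lowers the progenitor gene Eomes, had 3 counts in each sample.

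Of the 4 members with a ratio or a bound, 1 was called lower in IL-1β vesicles (miR-25) and 0 higher, where a call needed at least a 2-fold difference and an interval that excluded 1. Over all 160 probes with a ratio or a bound, 9.38% were called lower and 5.62% higher, so 1 member in 4 is too few to set against the background. Among the 139 probes above background in both samples, the median ratio was 1.21, and 11 of them, miR-25 included, were at or below 0.424.

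**Figure D2:**
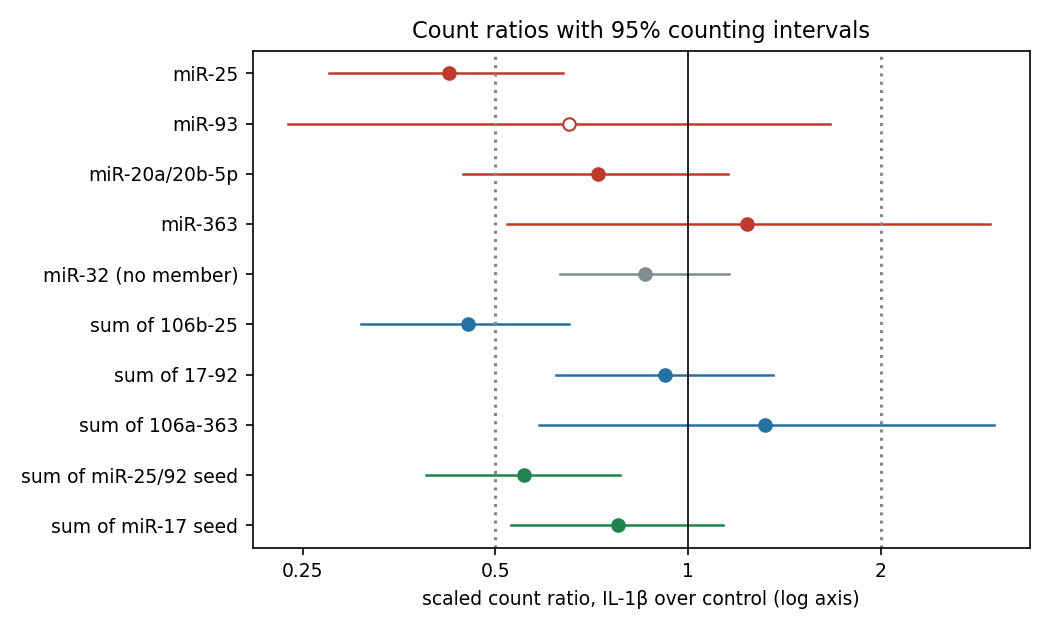
Count ratios of IL-1β over control vesicles (horizontal log axis) for the 4 members with a ratio or bound, for miR-32, and for sums by cluster and by seed, with 95% counting intervals; the open circle marks miR-93, not above background in IL-1β vesicles, and dotted lines mark 2-fold. The intervals of miR-25, the miR-106b-25 sum and the miR-25/92 seed sum lie below 1, and both sums rest on miR-25. The other intervals include 1.

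Comparisons between members do not depend on the scaling, since both ratios carry the same factor. The miR-25 ratio was 0.342 of the miR-363 ratio (conditional exact interval 0.129 to 0.912) and 0.494 of the miR-32 ratio (0.291 to 0.833). Set against miR-20a/20b-5p it was 0.586 (0.308 to 1.12) and against miR-93 it was 0.649 (0.229 to 1.96), and these intervals include 1. The summed miR-106b-25 ratio was 0.491 of that of miR-17-92 (0.284 to 0.851) and 0.343 of that of miR-106a-363 (0.138 to 0.853). All but 17 of the control counts in the miR-106b-25 sum were those of miR-25, so these comparisons of clusters rest on it.

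The members were also summed by seed. The 4 probes with the miR-25/92 seed summed to 51 counts in IL-1β vesicles and 105 in control vesicles, a ratio of 0.555 (0.389 to 0.783), of which miR-25 gave 33 and 89 counts. None of the others had fewer counts in IL-1β vesicles: miR-92a had 2 there and 1 in control vesicles, miR-92b 3 and 3, and miR-363 13 and 12. The low sum thus rests on miR-25. The 4 probes with the miR-17 seed summed to 49 counts in IL-1β vesicles and 72 in control vesicles, a ratio of 0.778 (0.529 to 1.13). The first ratio was 0.714 of the second, with an interval of 0.423 to 1.21. The 2 miR-19 probes summed to 8 counts in IL-1β vesicles and 6 in control vesicles, with 6.25 and 6.50 expected from the negative controls.

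Within the miR-25/92 seed, the probe outside the clusters had more counts than any member in both samples. In control vesicles its Poisson interval (85.0 to 126) overlapped that of miR-25 (71.5 to 109.5). miR-32 had 78 counts in IL-1β vesicles and 104 in control vesicles, a ratio of 0.857 (0.631 to 1.16). In the authors' deposited table the order was opposite, with a miR-32 signal of 46.6 in IL-1β vesicles and 47.6 in control vesicles, below the 316 and 472 of miR-25. Probes capture miRNAs with different efficiency, so the order of counts is not an order of molar amounts.

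Scaling set how large the differences were. The miR-25 ratio stayed under 0.5 with each of the 8 alternatives, between 0.246 and 0.462. With positive-control scaling, which lowers every log2 ratio by 0.78, 3 members were called lower (miR-25, miR-20a/20b-5p and miR-93), where 24% of the 192 probes with a value were. The miR-363 ratio was 0.719 with positive-control scaling and 0.969 when scaled on the probes with no mouse counterpart, and above 1 with the others.

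**Figure D3:**
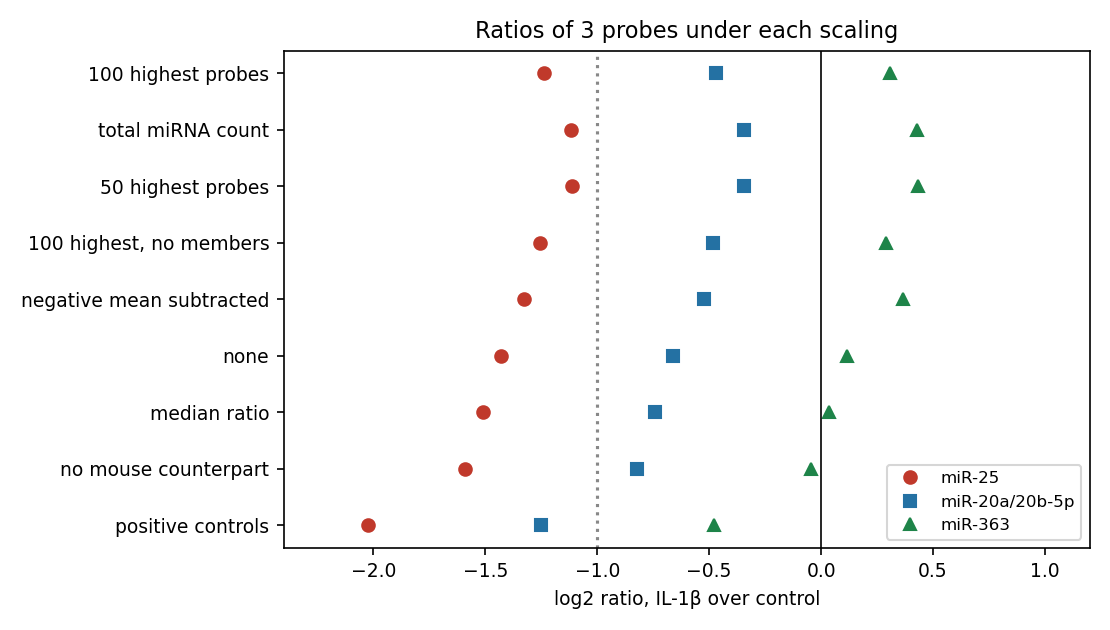
Log2 ratios of IL-1β over control vesicles (horizontal axis) for miR-25, miR-20a/20b-5p and miR-363 under the main scaling (100 highest probes) and the 8 alternatives, 1 per line; the dotted line marks a 2-fold decrease. miR-25 lies left of the dotted line in every line, miR-20a/20b-5p only with positive controls, and miR-363 crosses 0.

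Probes with no mouse counterpart were set beside the members as another comparison. Of the 69, 41 in IL-1β vesicles and 49 in control vesicles exceeded the negative-control threshold, beside 34.8% and 44.0% of all probes. Their median was 15 counts in IL-1β vesicles and 13 in control vesicles, beside 5 over all probes. They passed more often than the whole set, so they are not a plain measure of background. Of these 69 rat probes, 17 had at least as many counts as miR-25 in IL-1β vesicles and 5 in control vesicles. At least the count of miR-363 was reached by 37 of the 69 in each sample. The 95th percentile of these probes was 112 counts for IL-1β and 105 for control. With it as the threshold, 0 of the 12 members passed in either sample. Few probes of any kind did: 29 of all miRNA probes in IL-1β vesicles and 35 in control vesicles. The 0 members are thus too few to set them apart from the whole set. As for ratios, 40 probes with no mouse counterpart were above background in both samples. Of these, 0 lay at or below the ratio of miR-25, and their median was 1.30.

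Some probes of similar count had ratios near that of miR-25. Of the 51 other probes above background in both samples whose mean count was within 2-fold of its own, the nearest in log2 ratio were miR-290 at 0.417 (65 counts in IL-1β vesicles and 178 in control vesicles), miR-27b at 0.369 (40 and 124) and miR-191 at 0.519 (30 and 66). These probes were picked by nearness in ratio, so the likeness was set by the choice, and it rests on 1 ratio between 2 samples. In the authors' deposited table the signal ratios were 0.346 for miR-290, 0.840 for miR-27b and 2.26 for miR-191, beside 0.669 for miR-25, so miR-191 ran the other way there.

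In lymphoma models Myc raises miR-17-92 and represses another set of miRNAs, which was examined alongside the clusters. Of 18 listed miRNAs 16 had a probe, and 9 had a ratio, of which 1 was called higher in IL-1β vesicles (let-7a, 3.43) and 2 lower (miR-22, 0.395, and miR-30b-5p, 0.423), beside the 5.62% and 9.38% of all probes. Of the other members with high counts, let-7d, like let-7a a growth inhibitor, was at 0.934, miR-29a, which targets collagen genes, at 1.26 and miR-16, which lowers cyclins, at 1.12. The median log2 ratio of the 9 was 0.33, beside 0.27 over all 139 probes with a ratio.

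The authors' deposited table lists signals, with a normalization not given in the sources used here, for 5 of the 12 members. In the authors' deposited table miR-25 had a signal of 316 in IL-1β vesicles and 472 in control vesicles, a ratio of 0.669, in the same direction as the raw counts but under 2-fold. The median ratio of the 119 probes with both signals was 0.883, and miR-25 ranked only 27th from the lowest. The joint miR-20a/20b-5p probe had 105.67 and 118.73, a ratio of 0.890, for which the authors' deposited table gives a ratio of 0. The ratios here were therefore taken from the signals.

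The other 3 listed members were within background in the raw counts. In the authors' deposited table miR-106b had a signal of 43.9 in IL-1β vesicles and 130 in control vesicles, a ratio of 0.339 and the second lowest of 119, while the raw counts were 1 and 3. The same table gives miR-19a 18.4 in IL-1β vesicles and 42.4 in control vesicles, a ratio of 0.433, against raw counts of 4 and 3. It gives miR-17-5p 37.8 and 33.7, a ratio of 1.12, against raw counts of 9 and 6. Of the 5 members in the authors' deposited table, 2 were thus at least 2-fold lower and 0 at least 2-fold higher, where 8.4% and 9.24% of the 119 probes with both signals were.

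**Figure D4:**
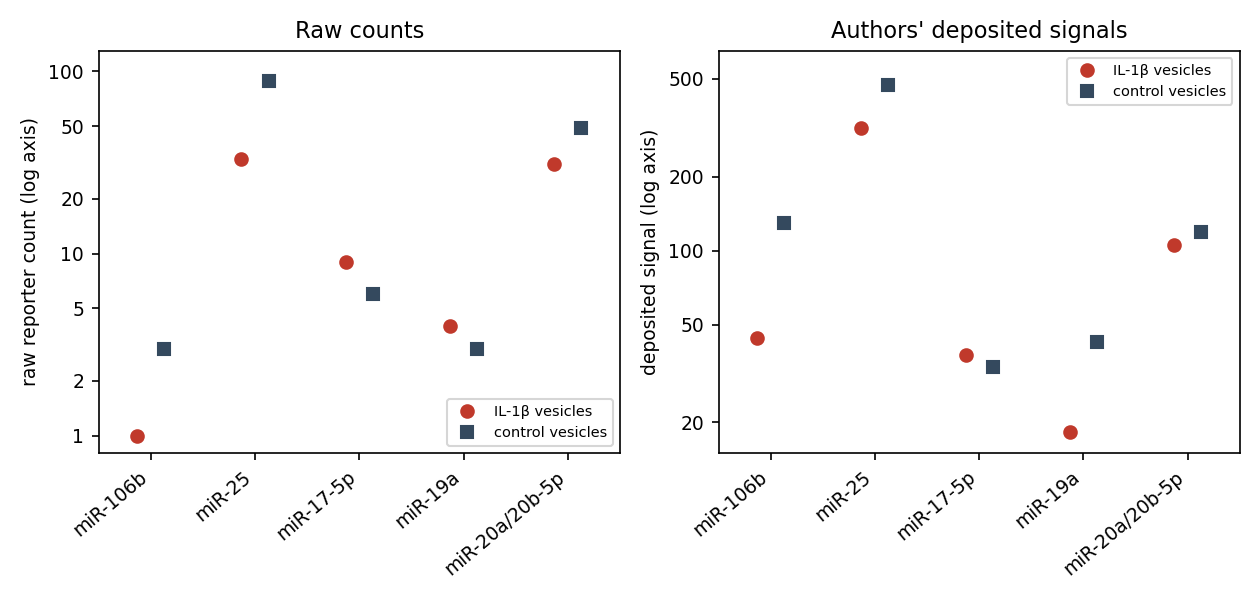
Raw reporter counts (left) and the authors' deposited signals (right), both on log axes, for the 5 members that the table lists; circles are IL-1β vesicles and squares control vesicles. miR-106b has 1 and 3 raw counts but signals of 43.9 and 130, and the order of IL-1β and control is opposite for miR-19a.

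The scale of signals over counts was not common to the members. In the authors' deposited table the miR-106b signal was 43.9 per raw count in IL-1β vesicles and 43.2 in control vesicles, whereas over all 124 listed probes the median was 4.19 and 2.35. The authors' deposited table lists 12 probes that are within background in both raw samples, 3 of them members. It omits miR-363 and miR-93, the members above background in at least 1 raw sample that have no signal. For miR-106b and miR-19a the raw counts give no direction, and the miR-106b signals have nearly the ratio of its 1 and 3 counts.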

How the data were processed

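Per the file headers, the deposited raw files hold nCounter reporter counts with no normalization, 1139 of 1150 fields of view counted for IL-1β and 1121 for control. The authors also deposited signals, with their ratio, for 124 probes, and their normalization was not given in the sources used here. Probes were matched between tables by accession. All members, seed relatives and the other arms of the same hairpins were named, as were the 3 probes nearest to miR-25. Of the Myc-repressed miRNAs, those called and those with the highest mean counts, down to miR-16, were named. Ratios were computed without background subtraction, with Clopper-Pearson intervals of the split of each count (SciPy 1.17.1, Python 3.11.15), after the interval code was tested on simulated data. A probe above background in 1 sample received a bound against the other threshold. A mouse counterpart meant a mouse miRNA gene of the same number in RefSeq. The members, lists and tests were chosen with earlier results of these data known. With 1 sample a group, intervals leave out biological and preparation error. Alternatives were 7 scalings, background subtraction, 4 thresholds, 3 fold minimums, probe assignments and the deposited ratio column. The miR-106b-25 sum without miR-25, the IL-1β threshold without its highest negative control and a scaling on the probes lacking a mouse counterpart were added after seeing the data.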

Additional observations from a re-analysis of the deposited data

Results flagged for a closer look

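The code set also has probes for 4 mRNAs, which no comparison above uses, and these summed to 39568 counts in IL-1β vesicles and 1175 in control vesicles, 38.5-fold higher on the scaling used for the miRNAs, while the member probes summed to 110 and 184 counts. The part of this difference in the miRNA ratios was not tested.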

How the results depend on the processing

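No result with a call turned in direction among the members. With positive-control scaling the members called lower numbered 3, and the ratios were 0.535 for the miR-17-92 sum, 0.263 for miR-106b-25, 0.451 for the miR-17 seed and 0.322 for the miR-25/92 seed. Members called lower numbered 0 with a 4-fold minimum and with the threshold from probes with no mouse counterpart. At that threshold 0 members were above background in IL-1β vesicles and 0 in control vesicles, beside 29 and 35 of all miRNA probes. At mean + 1 SD of the negative controls, 5 members were above background in IL-1β vesicles and 5 in control vesicles. The whole set rose too, from 146 to 184 probes in IL-1β vesicles and from 185 to 228 in control vesicles. At the highest negative control of each sample miR-17-5p also passed in control vesicles, making 5 members, beside 203 of all miRNA probes in that sample. Without the highest negative control, at 10 counts, the IL-1β threshold was 5.87 and 5 members were above it, beside 202 of all miRNA probes. With probes of shared sequence counted under miR-106a-363, the miR-17-92 ratio was 1.65. Myc-repressed miRNAs called higher numbered 0 with positive controls, and 2 when scaled on total counts or on the 50 highest probes. Their median log2 ratio turned to -0.45 with positive controls and -0.019 with probes with no mouse counterpart. The other 127 values kept their direction and call or stayed within the counting interval, apart from the control counts of passing members just given. No paired analysis was possible because each group has 1 sample. Depth limits the members to differences larger than the intervals given, and 8 of them to none.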
